A study of Mus musculus with 7 samples.

Results

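The genes described here are 9 genes of the B cell receptor and the B lineage, Cd79a, Cd79b, Ms4a1, Cd22, Faim3, Vpreb1, Vpreb3, Pou2af1 and Fcrla, out of 16734 genes listed for whole mouse thymus. They were taken by symbol from the deposited table, and they had been chosen by their known role together with their measured levels in the mutant and wild type libraries compared below. Their levels and differences in those comparisons are therefore given as a description, with no test. All 9 were found in the table.

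RNA was taken from suspensions of whole thymus of 4 week old mice. There were 2 libraries from Ikaros ZnF4-/- mice, 2 from Ikaros ZnF1-/- mice and 3 from wild type (WT) C57BL/6 mice, with no treatment named in any group. The mutants lack, on both alleles, the fourth or the first zinc finger of the DNA-binding domain of Ikaros, a transcription factor of lymphoid cells encoded by Ikzf1. The labels give a background strain for the WT mice only, and do not say whether a library holds 1 animal or several.

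The B cell receptor is an immunoglobulin held at the cell surface by the signalling chains Ig-alpha (Cd79a) and Ig-beta (Cd79b), which form a heterodimer. Before an immunoglobulin light chain is made, the surrogate light chain of VpreB and lambda5 takes its place in the pre-B cell receptor. The thymus is a T cell organ that holds a small population of B cells, and Ikaros is needed for B cells to form at all. In RNA from a whole organ, fewer cells of a type and less RNA per cell cannot be told apart.

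Values are RPKM, read numbers over the exons of a gene scaled to exon length and to the mapped reads of the library. Reads were 76 bp long in replicate 1 of each group, and 50 bp, from another instrument, in the libraries numbered 2, 2A and 2B, so the replicate number marks a sequencing batch. The sex of the mice went with that batch. Xist, transcribed from the inactive X chromosome of females, ranged from 90.57 to 109.21 RPKM in replicate 1, against 0.01 to 0.03 RPKM in all 4 remaining libraries. From the steps that whole reads leave in low values, the depth of the 76 bp libraries was estimated as 6320000 reads in ZnF4-/-, 14290000 in ZnF1-/- and 20190000 in WT. No step could be found in the 50 bp libraries, whose depth is unknown. The samples carried the marks of the thymus. The 10 thymocyte genes that were listed as a check, among them Cd3e, Cd4 and Cd8a, summed to 4180 to 6030 RPKM per library, against 4.44 to 6.81 RPKM for 7 genes of thymic epithelium. Ikzf1 itself was at 238.09 and 257.02 RPKM in ZnF4-/-, 183.02 and 194.30 RPKM in ZnF1-/- and 141.71 to 175.43 RPKM in WT, a level over the whole gene that does not show whether a finger is missing.

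The proximal promoters of 7 of the 9 genes were held in the RefSeq sequence table (build GRCm38.p6), matched by symbol, or for Faim3 by its RefSeq transcript under the newer symbol Fcmr. Cd79b and Ms4a1 had no entry. In the 250 bases before the start site, 3 motifs were searched on both strands. These were GGGAA, the core that Ikaros fingers recognise, the octamer ATTTGCAT bound by Oct proteins with the Pou2af1 product as coactivator, and TCCC followed by any 2 bases and GGGA, a form of the palindrome bound by EBF1, the factor that specifies the B lineage. GGGAA was in 5 of the 7 promoters, and 56.2% of the 32851 promoter windows in the table hold it. The octamer was in 1 of the 7, that of Vpreb3, against 1.6% of all windows, and the EBF1 palindrome in 1, that of Cd22, against 0.779% of all windows. The 4 promoters below are shown because Cd79a, Cd22 and Faim3 were each lower in ZnF1-/- than in ZnF4-/- and WT libraries while differing in their motifs, and because Vpreb3, lower in both mutants, carries the octamer. The windows are chr7:24897247-24897496 (plus strand) for Cd79a, chr7:30879029-30879278 (minus strand) for Cd22, chr1:130865527-130865776 (plus strand) for Faim3 and chr10:75948050-75948299 (plus strand) for Vpreb3. Each is printed 5′ to 3′ in the direction of the gene, ending at the last base before the start site, with motif matches in capitals.
Cd79a: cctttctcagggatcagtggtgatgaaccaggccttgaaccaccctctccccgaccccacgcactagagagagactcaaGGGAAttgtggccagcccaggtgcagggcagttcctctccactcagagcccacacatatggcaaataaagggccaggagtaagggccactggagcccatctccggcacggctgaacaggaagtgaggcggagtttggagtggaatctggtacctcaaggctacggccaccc
Cd22: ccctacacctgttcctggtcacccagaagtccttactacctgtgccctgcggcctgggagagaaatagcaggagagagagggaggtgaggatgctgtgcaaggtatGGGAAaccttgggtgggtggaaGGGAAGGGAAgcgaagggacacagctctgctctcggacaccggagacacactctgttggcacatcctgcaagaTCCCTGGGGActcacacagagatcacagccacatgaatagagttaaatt
Faim3: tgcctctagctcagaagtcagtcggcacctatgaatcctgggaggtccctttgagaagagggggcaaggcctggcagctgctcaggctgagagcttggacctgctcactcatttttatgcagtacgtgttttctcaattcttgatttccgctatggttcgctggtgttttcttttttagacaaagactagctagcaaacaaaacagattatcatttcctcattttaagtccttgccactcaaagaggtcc
Vpreb3: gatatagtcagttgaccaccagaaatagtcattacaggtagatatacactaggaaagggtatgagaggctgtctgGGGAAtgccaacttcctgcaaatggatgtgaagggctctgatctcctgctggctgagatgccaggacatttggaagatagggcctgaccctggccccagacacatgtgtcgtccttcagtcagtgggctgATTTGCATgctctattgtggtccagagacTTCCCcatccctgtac

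The Cd79a promoter, a known target of EBF1, held GGGAA once, 171 to 167 bases before the start. Cd22 held it 3 times, from 144 to 113 bases before the start, and the EBF1 palindrome at 49 to 40 bases. In Vpreb3 the octamer lay 45 to 38 bases before the start, between a GGGAA at 175 bases and its reverse complement at 16 bases. The Faim3 and Fcrla windows held none of the 3 motifs, although both genes were lower in ZnF1-/- libraries as described below. A match is a string of letters and not a site shown to be bound, and the absence of one says nothing of the factor.

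In WT thymus Cd79b stood apart from the other 8 genes. It averaged 17.1 ± 2.21 RPKM (SD, n = 3), whereas Pou2af1 averaged 2.53 ± 0.245 RPKM, Cd79a 1.59 ± 0.172 RPKM and Ms4a1 1.09 ± 0.195 RPKM. Below these came Faim3 at 0.997 ± 0.381 RPKM, Fcrla at 0.9 ± 0.0458 RPKM, Vpreb3 at 0.627 ± 0.0961 RPKM, Cd22 at 0.537 ± 0.0929 RPKM and Vpreb1 at 0.363 ± 0.137 RPKM. In this order the WT values of Cd79b, Pou2af1, Cd79a and Ms4a1 did not overlap. Those of Ms4a1 and Faim3, of Faim3 and Fcrla, of Vpreb3 and Cd22, and of Cd22 and Vpreb1 did. Genes were tested if they averaged 1 RPKM or more across all 7 libraries, a level that 3 of the 9, Cd79a, Cd79b and Pou2af1, reached.

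**Figure D1:**
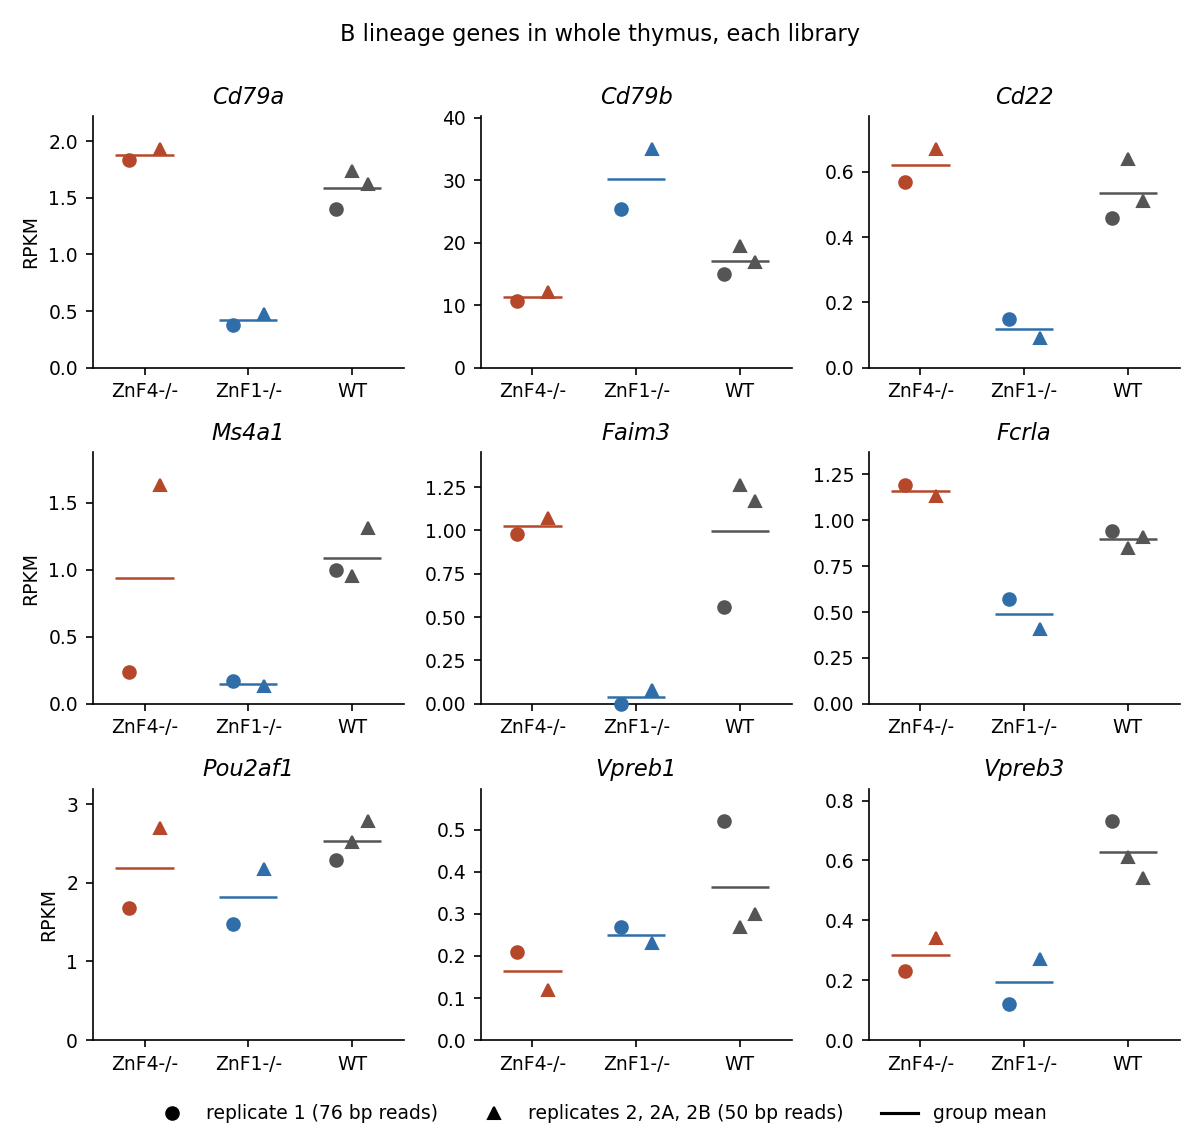
RPKM of each of the 9 genes (1 panel each, axes from 0) in every library of ZnF4-/-, ZnF1-/- and WT thymus, with circles for replicate 1, triangles for the other replicates and a line at the group mean. Cd79b is highest in ZnF1-/-, at 25.36 and 35.01 RPKM, where the other signalling chain gene, Cd79a, is lowest at 0.38 and 0.47 RPKM.

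In ZnF1-/- the genes of the 2 signalling chains lay on opposite sides of WT. Both mutants are set against the same 3 WT libraries, so the comparisons are not independent of each other. Cd79a (NM_007655; chromosome 7, 25682400 to 25687216, plus strand, mm9) was at 1.83 and 1.93 RPKM in ZnF4-/-, 0.38 and 0.47 RPKM in ZnF1-/- and 1.40, 1.74 and 1.62 RPKM in WT. All ZnF1-/- values lay below, and all ZnF4-/- values above, every WT value. Within a replicate number, the ZnF1-/- level was 0.271 times that of WT in replicate 1 and 0.28 times in replicate 2. By the estimated depth, the replicate 1 values rest on about 15 reads in ZnF4-/-, 7 in ZnF1-/- and 38 in WT. The log2 difference, on the log2(RPKM + 0.5) scale that understates changes of low genes, was -1.17 ± 0.18 (SE of the limma fit) for ZnF1-/- against WT and 0.19 ± 0.18 for ZnF4-/- against WT. The ZnF4-/- difference was -0.01 after quantile normalization, so that it has no settled sign.

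Cd79b (NM_008339; chromosome 11, 106172655 to 106176076, minus strand) was at 10.64 and 12.04 RPKM in ZnF4-/-, 25.36 and 35.01 RPKM in ZnF1-/- and 15.03, 19.43 and 16.87 RPKM in WT. The 3 groups did not overlap, and their order was the reverse of that of Cd79a. The ZnF1-/- level was 1.69 times that of WT in replicate 1 and 1.93 times in replicate 2, and the ZnF4-/- level was 0.708 and 0.663 times that of WT. The log2 difference was 0.79 ± 0.191 in ZnF1-/- and -0.57 ± 0.191 in ZnF4-/- against WT, and kept its sign under every alternative tried. These values rest on more reads than those of the other members, an estimated 81 in ZnF4-/-, 436 in ZnF1-/- and 365 in WT for replicate 1. Among the 10498 genes tested, the ZnF1-/- log2 difference of Cd79b ranked 96 from the highest and that of Cd79a 23 from the lowest. Both genes were chosen with this comparison known, so nothing is read from these ranks.

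Because the products of these genes pair in equal numbers, their RPKM ratio was followed through the libraries. Cd79b exceeded Cd79a 5.81 and 6.24 times in ZnF4-/-, 66.7 and 74.5 times in ZnF1-/- and 10.7, 11.2 and 10.4 times in WT. The ratios of a group lay close together across the 2 sequencing batches and both sexes, and the 3 groups did not overlap. Both genes were chosen with these comparisons known, so nothing is read from that separation. The replicate 1 ratios are also rough, as Cd79a there rests on an estimated 15 reads in ZnF4-/-, 7 in ZnF1-/- and 38 in WT.

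**Figure D2:**
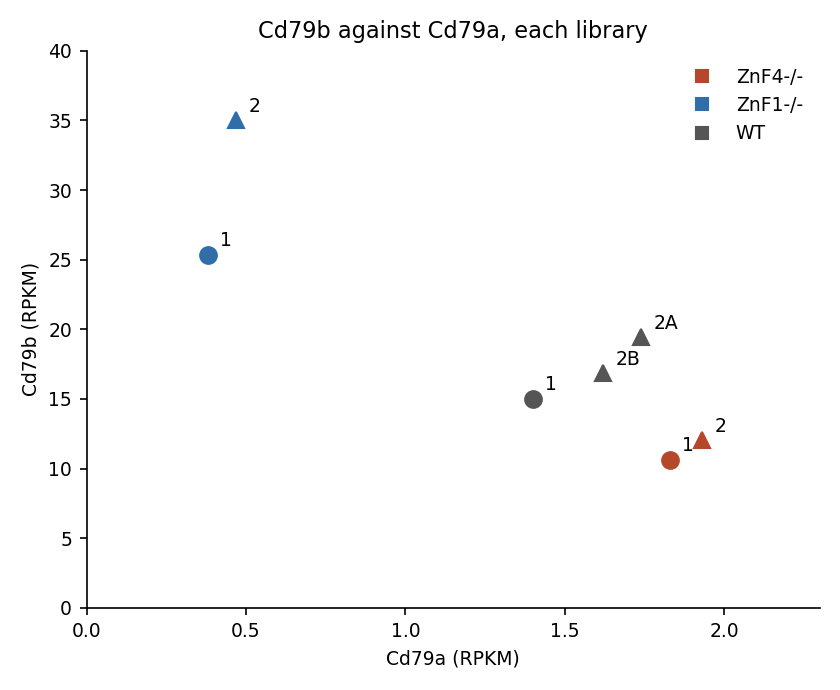
Cd79b (vertical axis, RPKM) against Cd79a (horizontal axis, RPKM) in each of the 7 libraries, both axes from 0, with the replicate number beside each point, circles for 76 bp and triangles for 50 bp libraries. The ZnF1-/- libraries sit at high Cd79b and low Cd79a, and the ZnF4-/- libraries at the lowest Cd79b and highest Cd79a.

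The other surface proteins were low in ZnF1-/- and, with an exception for Ms4a1, near or above WT in ZnF4-/-. Cd22 (NM_001043317; chromosome 7, 31650421 to 31665361), an inhibitory co-receptor that binds sialic acids, was at 0.57 and 0.67 RPKM in ZnF4-/-, 0.15 and 0.09 RPKM in ZnF1-/- and 0.46, 0.64 and 0.51 RPKM in WT. The ZnF1-/- values did not overlap those of WT, and were 0.326 and 0.157 times the WT level in replicates 1 and 2. Faim3 (NM_026976; chromosome 1, 132762246 to 132777367), which encodes the Fc receptor for IgM, was at 0.98 and 1.07 RPKM in ZnF4-/- and at 0.56, 1.26 and 1.17 RPKM in WT. In ZnF1-/- it was listed at 0 in replicate 1, where 1 read is worth an estimated 0.0467 RPKM, and at 0.08 RPKM in replicate 2. No other member was listed at 0 in any library.

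Fcrla (NR_027666; chromosome 1, 172847707 to 172857714), an Fc receptor-like protein kept inside B cells, was at 1.19 and 1.13 RPKM in ZnF4-/-, 0.57 and 0.41 RPKM in ZnF1-/- and 0.94, 0.85 and 0.91 RPKM in WT. As for Cd79a, the 3 groups did not overlap and ZnF4-/- was the highest. The log2 difference was -0.5 in ZnF1-/- and 0.25 in ZnF4-/- against WT. Of all pairs of members, Fcrla and Cd22 had the most similar profiles, with a root mean square difference of 0.147 log2 units over the 7 libraries once each gene's own mean was taken away.

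Ms4a1 (NM_007641; chromosome 19, 11324654 to 11340669), the gene of the B cell surface protein CD20, was at 0.24 and 1.63 RPKM in ZnF4-/-, 0.17 and 0.13 RPKM in ZnF1-/- and 1.00, 0.95 and 1.31 RPKM in WT. The ZnF1-/- libraries were 0.17 and 0.115 times the WT level. The ZnF4-/- libraries disagreed, since replicate 1 was below and replicate 2 above every WT value. An estimated 3 reads lie behind the low ZnF4-/- value, against 42 in WT replicate 1. The log2 difference of ZnF4-/- from WT, -0.33, became 0.43 without ZnF4-/- replicate 1. The direction of Ms4a1 in ZnF4-/- therefore depends on 1 library.

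Pou2af1 (NM_011136; chromosome 9, 51021795 to 51048184), the coactivator of Oct proteins that B cells need to form germinal centres, differed little among the genotypes. It was at 1.68 and 2.70 RPKM in ZnF4-/-, 1.48 and 2.17 RPKM in ZnF1-/- and 2.29, 2.52 and 2.78 RPKM in WT. Replicate 1 was the lower library in every group, and only the ZnF1-/- values lay below all those of WT. The log2 difference was -0.39 ± 0.229 in ZnF1-/- and -0.19 ± 0.229 in ZnF4-/- against WT, and the second became 0.08 without ZnF4-/- replicate 1.

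The Vpreb genes were lower on average in both mutants, Vpreb3 more clearly so than Vpreb1. Vpreb3 (NM_009514; chromosome 10, 75405802 to 75412402), whose product associates with newly made immunoglobulin heavy chains, was at 0.23 and 0.34 RPKM in ZnF4-/-, 0.12 and 0.27 RPKM in ZnF1-/- and 0.73, 0.61 and 0.54 RPKM in WT. Values of neither mutant overlapped those of WT, while the mutants overlapped each other. Vpreb1 (NM_016982; chromosome 16, 16868495 to 16870936) was at 0.21 and 0.12 RPKM in ZnF4-/-, 0.27 and 0.23 RPKM in ZnF1-/- and 0.52, 0.27 and 0.30 RPKM in WT. The ZnF4-/- values lay below all WT values, and the highest ZnF1-/- value equalled the lowest of WT. These are the thinnest data of the set, with an estimated 1 read in ZnF4-/- replicate 1 for either gene, 3 reads of Vpreb1 and 1 of Vpreb3 in ZnF1-/- replicate 1, and 8 and 9 in WT replicate 1. Vpreb1 also has a near-identical copy, Vpreb2, and shares 108 exon bases with Top3b on the opposite strand in the annotation, so that its reads may be split or mixed.

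Counted over the set, 8 of the 9 genes were below WT within both replicate numbers in ZnF1-/- and 1, Cd79b, was above. The ZnF1-/- values of 7 genes lay below every WT value, where 7.79% of all listed genes did so. In ZnF4-/- 3 genes, Cd79b, Vpreb1 and Vpreb3, lay below every WT value, against 8.93% of listed genes, and 2, Cd79a and Fcrla, lay above, against 16.2%. Between the mutants, 5 genes were higher in every ZnF4-/- than in every ZnF1-/- library, against 18.9% of listed genes, and 2, Cd79b and Vpreb1, were lower, against 13.7%. The set was chosen on these comparisons, so nothing is read from these counts.

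**Figure D3:**
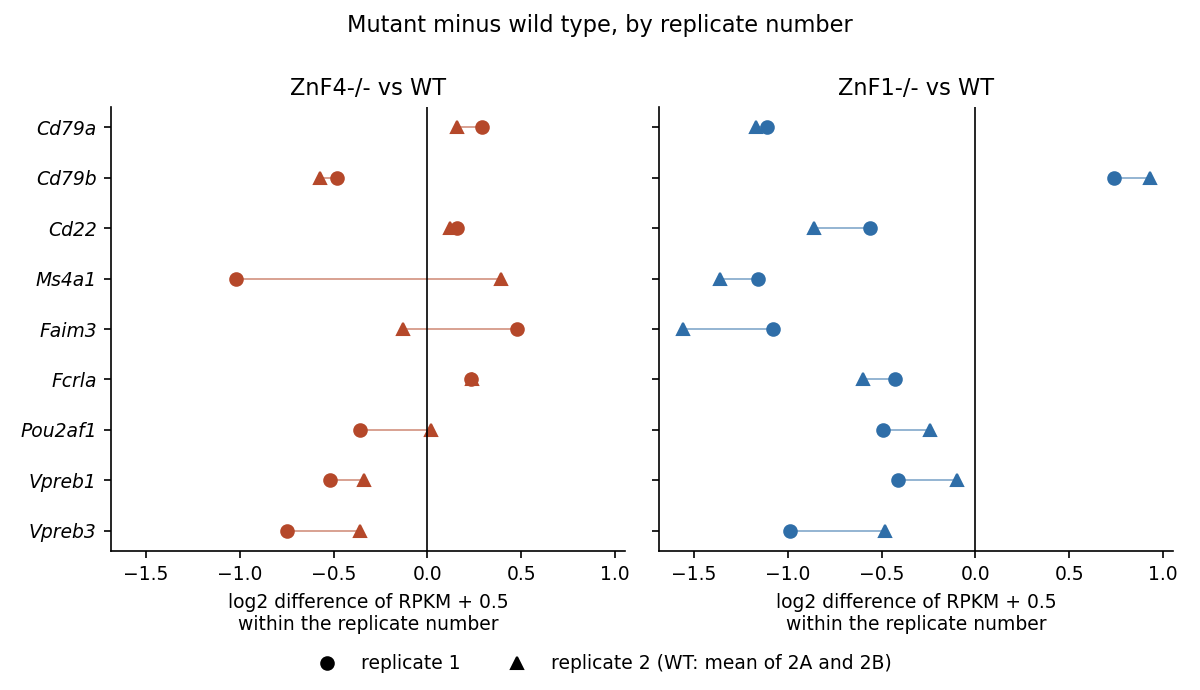
Log2 difference of RPKM + 0.5 (horizontal axis) between a mutant and WT within replicate 1 (circles) and replicate 2 (triangles, WT being the mean of 2A and 2B) for the 9 genes, with ZnF4-/- on the left and ZnF1-/- on the right. In ZnF1-/- Cd79b alone lies right of 0, at 0.74 and 0.93, while in ZnF4-/- the circle and triangle of Ms4a1 lie on opposite sides of 0.

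By profile, the root mean square difference of Cd79b from the other 8 ran from 0.557 log2 units for Vpreb1 to 1.16 for Faim3. Cd79b was the farthest member from each of them except Vpreb1. Vpreb1 lay farther from Cd79a (0.625), Ms4a1 (0.699) and Faim3 (0.752). The set was chosen with these comparisons known, so nothing is read from the place of Cd79b. Cd79a was 0.19 from Faim3 and 0.227 from Cd22, and Vpreb3 was 0.225 from Pou2af1 and 0.268 from Vpreb1. Profiles of genes near 0 RPKM are flattened by the added 0.5, which draws them together. Over all tested genes, the 5 profiles nearest to Cd79a included those of Sox13 (0.116), Il17re (0.122) and Faah (0.172). Sox13 was at 4.22 and 4.56 RPKM in ZnF4-/-, 1.40 and 1.79 RPKM in ZnF1-/- and 2.91, 4.12 and 4.26 RPKM in WT. Those nearest to Cd79b were Ankrd6 (0.0711), Myl10 (0.134), 5730508B09Rik (0.176), Myo1f (0.194) and Hdac11 (0.195). Ankrd6 was at 5.28 and 5.67 RPKM in ZnF4-/-, 12.42 and 16.37 RPKM in ZnF1-/- and 7.93, 9.83 and 9.08 RPKM in WT. None of the B lineage genes listed next was among the 5 nearest to Cd79b.

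B lineage genes outside the set were followed in 4 lists of 49 genes, of which 48 were in the table and 26 reached the level for a test. Among 22 surface and nuclear markers of B cells, 10 had both ZnF1-/- values below every WT value and 1 had both above, where 7.79% and 7.54% of all listed genes did. Among genes at a mean of 0.25 to 1 RPKM, the range of many of these markers, the share below was 12.5% and that above 14.9%. Of all 10498 genes tested by limma, 0.0857% passed an adjusted p of 0.05 in ZnF1-/- against WT, 0.0762% as higher and 0.00953% as lower. In ZnF4-/- against WT 2.54% passed, 2.24% as higher and 0.305% as lower, and in ZnF4-/- against ZnF1-/- 2.34% passed, 2.02% as higher and 0.324% as lower. With the replicate number as a block, 0.876% of genes passed in ZnF1-/- against WT, 0.572% as higher and 0.305% as lower. The blocked fit called 8.22% in ZnF4-/- against WT, 6.1% as higher and 2.12% as lower, and 7.29% in ZnF4-/- against ZnF1-/-, 5.19% as higher and 2.1% as lower. Of the 9 markers tested, 0 passed in ZnF1-/- against WT by limma. At an unadjusted p under 0.05 there were 0 higher and 3 lower, against 223 and 181 of all 10498 genes tested. In the blocked fit 2 of the 9 markers, Blk among them, fell. The median log2 difference in ZnF1-/- was -0.06 over the 9 markers tested and -0.02 over all 10498 genes tested. Over all 22 markers, 13 of them too low to test, it was -0.27.

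Blk, a Src family kinase found in B cells and in part of the gamma-delta T cells, was at 1.78 and 1.44 RPKM in ZnF4-/-, 0.43 and 0.64 RPKM in ZnF1-/- and 1.68, 2.13 and 1.60 RPKM in WT. Its log2 difference in ZnF1-/- was -1.15 ± 0.205 (limma adjusted p = 0.181, in the blocked fit 0.0407), and that in ZnF4-/- was -0.12 ± 0.205. Against ZnF1-/- Blk was higher in ZnF4-/- by 1.03 ± 0.225 (limma adjusted p = 0.077, in the blocked fit 0.0219, with libraries scaled to a common median 0.0499). Fcer2a, the low-affinity IgE receptor CD23 of mature B cells, was at 1.18 and 1.82 RPKM in ZnF4-/-, 0.43 and 0.33 RPKM in ZnF1-/- and 0.96, 0.87 and 0.73 RPKM in WT, with no overlap among the 3 groups. It was too low for the test and passed for ZnF4-/- against ZnF1-/- when the filter was dropped (limma adjusted p = 0.0347).

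The complement receptor gene Cr2 was at 0.55 and 0.26 RPKM in ZnF4-/-, 0.33 and 0.14 RPKM in ZnF1-/- and 0.39, 0.24 and 0.23 RPKM in WT, with overlapping groups. The lineage factors were near 0. Ebf1 was at 0.21 and 0.31 RPKM in ZnF4-/-, 0.06 and 0.02 RPKM in ZnF1-/- and 0.12, 0.20 and 0.21 RPKM in WT. Pax5, which keeps B cells committed, was at 0.08 and 0.72 RPKM in ZnF4-/-, 0.22 and 0.03 RPKM in ZnF1-/- and 0.04, 0.33 and 0.44 RPKM in WT, so that all 3 groups overlapped. In ZnF4-/- 9 of the 22 markers were above every WT value, against 16.2% of all listed genes and 35.1% of those at 0.25 to 1 RPKM, and 1 was below every WT value, against 8.93% and 8.52%. By limma 0 of the 9 tested passed in ZnF4-/- against WT, with 2 higher and 0 lower at an unadjusted p under 0.05. Of all 10498 genes tested, 736 were higher and 327 lower at that level. Between the mutants, 14 of the 22 were higher in every ZnF4-/- than in every ZnF1-/- library, against 18.9% of listed genes and 37.6% of those at 0.25 to 1 RPKM, and 2 were lower, against 13.7% and 13.4%.

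**Figure D4:**
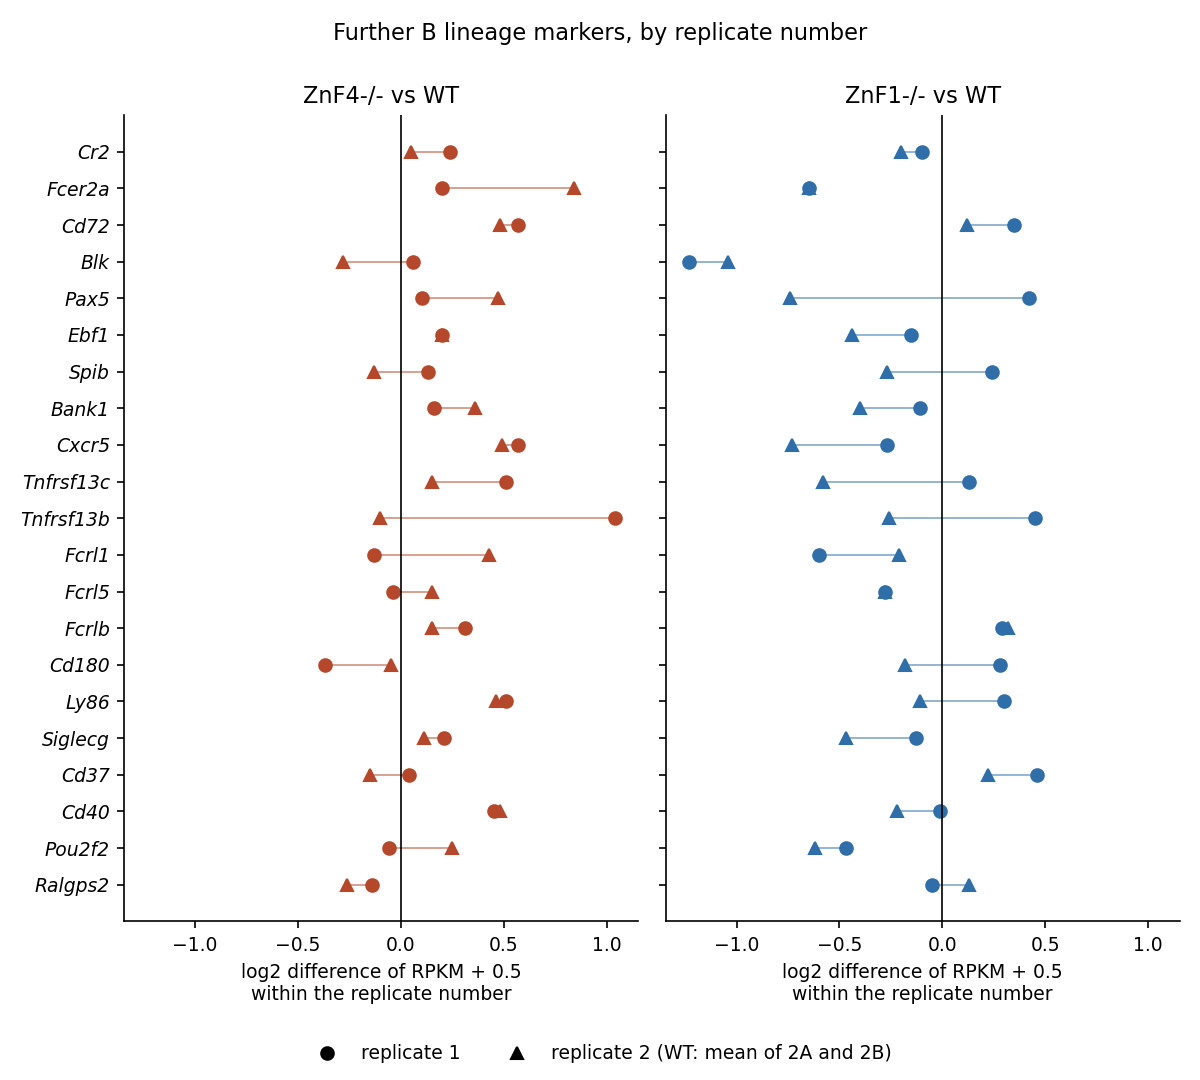
Log2 difference of RPKM + 0.5 (horizontal axis) between a mutant and WT within replicate 1 (circles) and replicate 2 (triangles) for further B lineage markers, with ZnF4-/- on the left and ZnF1-/- on the right. Of the markers drawn, Blk lies farthest to the left in ZnF1-/-, at -1.23 and -1.04, and the circle and triangle of Pax5 lie on opposite sides of 0 there.

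The partners of the surrogate light chain had their highest values in ZnF4-/-. Igll1, which encodes lambda5, was at 0.89 and 0.35 RPKM in ZnF4-/-, 0.08 and 0.10 RPKM in ZnF1-/- and 0.13, 0.14 and 0.13 RPKM in WT. Both ZnF4-/- values lay above those of the other groups, with an estimated 5 reads in ZnF4-/- replicate 1 and 2 in WT replicate 1. Vpreb2 was at 0.37 and 0.06 RPKM in ZnF4-/-, listed at 0 in ZnF1-/-, and at 0 to 0.05 RPKM in WT. Its 431 exon bases are fewer than the 604 of Vpreb3, for which 1 read in ZnF4-/- replicate 1 is worth an estimated 0.262 RPKM. The 0.37 RPKM of Vpreb2 in that library therefore rests on very few reads, and the 0.06 RPKM is next to the highest WT value. Neither reached the level for a test.

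Downstream of the receptor, 13 of 17 listed signalling genes were tested and 0 passed by limma in any of the 3 comparisons. In ZnF1-/- against WT 0 were higher and 1 lower at an unadjusted p under 0.05, and the median log2 difference was 0.01. In ZnF4-/-, against WT as well as against ZnF1-/-, 0 were higher and 1 lower at that level. Of all 10498 genes tested, 223 were higher and 181 lower at that level in ZnF1-/- against WT. For ZnF4-/- these numbers were 736 and 327 against WT, and 656 and 307 against ZnF1-/-. In the blocked fit Pik3cd, a phosphoinositide 3-kinase subunit, rose in ZnF4-/- to 42.3 ± 6.42 RPKM (n = 2), against 31.3 ± 7.58 RPKM in WT (n = 3; limma adjusted p = 0.708, in the blocked fit 0.0268). Inpp5d, which encodes the opposing phosphatase SHIP1, fell there to 20.9 ± 3.75 RPKM in ZnF4-/-, against 29.8 ± 6.58 RPKM in WT (limma adjusted p = 0.617, in the blocked fit 0.0436). It was at 27.22 and 35.65 RPKM in ZnF1-/-, and in the blocked fit was lower in ZnF4-/- than there (limma adjusted p = 0.599, in the blocked fit 0.0169). Values of both genes overlapped between ZnF4-/- and WT when the replicate numbers were set aside. Many of these genes serve T cell receptor signalling too, and their sum was 376 to 460 RPKM in ZnF4-/-, 377 to 459 RPKM in ZnF1-/- and 333 to 460 RPKM in WT.

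Of 7 plasma cell genes 4 were tested. Irf4, a factor of plasma cells and of activated T cells, was at 1.99 and 2.87 RPKM in ZnF1-/-. It rose to 9.87 and 13.21 RPKM in ZnF4-/-, against 2.47, 2.76 and 2.76 RPKM in WT, by 1.92 ± 0.196 log2 units (limma adjusted p = 0.00416). That call was lost without ZnF4-/- replicate 2 (limma adjusted p = 0.0586). Mzb1, listed as 2010001M09Rik, encodes an endoplasmic reticulum protein of plasma cells and marginal zone B cells. It was at 1.35 and 0.95 RPKM in ZnF4-/-, 1.58 and 3.10 RPKM in ZnF1-/- and 3.07, 5.08 and 3.20 RPKM in WT. Its log2 difference in ZnF4-/- against WT was -1.36 ± 0.305 (limma adjusted p = 0.0852, in the blocked fit 0.0213, with libraries scaled to a common median 0.0376 and after quantile normalization 0.0266). The J chain gene Igj was at 0.94 and 0.92 RPKM in ZnF4-/-, 0.76 and 0.64 RPKM in ZnF1-/- and 2.53, 1.17 and 1.81 RPKM in WT, below all WT values in both mutants, and did not pass in either fit. Over the 4 lists together, limma called 0 of 26 tested genes in ZnF1-/- against WT and 1, Irf4, in ZnF4-/- against WT. It called 2, Irf4 among them (limma adjusted p = 0.00355), as higher in ZnF4-/- than in ZnF1-/-. In ZnF1-/- against WT 0 of the 26 were higher and 5 lower at an unadjusted p under 0.05. Over all 10498 genes tested, 223 were higher and 181 lower at that level.

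Markers of other cells moved with some of these results. Of 8 gamma-delta T cell genes in the table, Blk among them, 5 were in ZnF1-/- below every WT value, where 7.79% of all listed genes were. Sox13, a factor of gamma-delta T cells and the gene nearest in profile to Cd79a, fell in ZnF1-/- in the blocked fit, as did Blk (limma adjusted p of Sox13 = 0.272, in the blocked fit 0.0242). Sox13 was higher in ZnF4-/- than in ZnF1-/- by 1.23 ± 0.217 (limma adjusted p = 0.0331), a call lost without any 1 library other than WT replicate 1 and with WT 2A and 2B averaged (limma adjusted p of 0.0646 to 0.231). Cd163l1, a scavenger receptor of gamma-delta T cells, rose to 6.33 and 4.34 RPKM in ZnF4-/-, against 1.02, 1.27 and 0.78 RPKM in WT (limma adjusted p = 0.00907), and was at 0.50 and 0.87 RPKM in ZnF1-/-. Its call against WT was lost without either ZnF4-/- library (limma adjusted p = 0.0957 without replicate 1 and 0.0586 without replicate 2). The summed level of the 8 genes was 122 to 123 RPKM in ZnF4-/-, 146 to 174 RPKM in ZnF1-/- and 152 to 202 RPKM in WT. None of the 8 was listed at 0 in all libraries. MHC class II genes, which B cells share with dendritic cells and epithelium, summed to 154 to 187 RPKM in ZnF4-/-, 109 to 149 RPKM in ZnF1-/- and 96.5 to 154 RPKM in WT, and 1 of 7 lay below every WT value in ZnF1-/-, against the same 7.79%. The MHC class II gene H2-Ob fell in ZnF4-/- in the blocked fit, to 2.48 and 1.72 RPKM, against 4.05, 3.20 and 2.73 RPKM in WT (limma adjusted p = 0.411, in the blocked fit 0.0412). It was lower still in ZnF1-/-, at 1.85 and 1.64 RPKM, without passing in either fit (limma adjusted p = 0.721, in the blocked fit 0.0553). Macrophage markers summed to 41.4 to 56.8 RPKM in ZnF4-/-, 26.9 to 32.4 RPKM in ZnF1-/- and 30.3 to 41.3 RPKM in WT. Dendritic cell markers, most of the sum being Ccr9, came to 202 to 257 RPKM in ZnF4-/-, 298 to 323 RPKM in ZnF1-/- and 325 to 370 RPKM in WT. That sum does not stand for the whole list. Of its 9 genes, 3 lay below and 1 above every WT value in ZnF4-/-, against 8.93% and 16.2% of all listed genes. Erythroid markers came to 48.7 to 63.1 RPKM in ZnF4-/-, 10.6 to 30.5 RPKM in ZnF1-/- and 12.3 to 32 RPKM in WT. Most of the ZnF4-/- sum was Hbb-b1, at 43.38 and 44.89 RPKM. Of the 6 erythroid genes, 2 lay above and 1 below every WT value in ZnF4-/-, against 16.2% and 8.93% of all listed genes. In the blocked fit, and not without the block, C1qa, C1qc, Hbb-b1 and Bst2 were higher and Ccr9 and Cd8a lower in ZnF4-/- than in WT, and Bst2 was higher in ZnF1-/- than in WT. Against ZnF1-/-, that fit called C1qa, C1qc, Hbb-b1 and Ptcra as higher and Cd8a and Cd8b1 as lower in ZnF4-/-. None of the marker lists had a gene at 0 in every library. The part of these cells in the levels of the B lineage genes was not tested.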

How the data were processed

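Whole thymus was measured in 7 libraries of polyadenylated RNA. The deposited values are RPKM per gene, made by the authors from exonic reads counted in SeqMonk with the NCBI annotation of mm9, per the series design text, for genes with a read in at least 1 sample and with duplicate transcripts removed. TopHat and bedtools are named in the submitters' processing notes. Versions, strand and read totals are not given in the sources used here. From these, log2(RPKM + 0.5) was computed, and 10498 genes averaging 1 RPKM or more were tested with limma 3.58.1 in R 4.3.3 (lmFit, eBayes with trend, 1 fit of 3 groups, two-sided, Benjamini-Hochberg over all tested genes, threshold 0.05).

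The replicate number marks read length, per the labels' protocols, and deviations of same-numbered libraries of different groups correlated at 0.489 to 0.737 over 8 pairs, so a fit with the number as a block was run beside it, with 3 residual degrees of freedom against 4. The labels do not say whether replicates come from different mice, and a p-value covers only the variation among these libraries, which may be technical. Depth was estimated as the number of reads whose whole-read steps best matched low values. Within 0.006 RPKM, 56.9%, 54.6% and 48.7% of low values lay on the steps in ZnF4-/-, ZnF1-/- and WT replicate 1, against 10.4%, 20.9% and 21.5% by chance. Read numbers are estimates from that depth.

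The 9 genes and the lists were chosen with earlier results of these data known. Named outside the 9 are B lineage list genes that passed in a fit with or without the block, B lineage genes fixed by name, and the 5 nearest profiles to Cd79a and to Cd79b. Mm9 coordinates are from GENCODE vM1. Also named are Ikzf1, Xist and genes of the other cell lists that passed either fit; Vpreb2 and Igj were picked after their values were seen. Some genes that these rules select are counted but not reported by name here. Alternatives were the block, pseudocounts of 0.1 and 1, no filter, scaling to a common median, quantile normalization, averaging WT 2A and 2B, and leaving out each library.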

Additional observations from a re-analysis of the deposited data

Results flagged for a closer look

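The sequencing batches, which are also the sexes, gave opposite directions in at least 1 comparison for 15 of the 33 B lineage genes compared within replicate numbers. A gene was counted by sign alone, however small its differences, such as Fcrl5 at -0.04 and 0.15 in ZnF4-/- against WT. The share among all listed genes was not computed, so nothing is read from this count. Each batch holds 1 library of either mutant. For Ms4a1 in ZnF4-/- against WT the log2 difference was -1.02 in replicate 1 and 0.39 in replicate 2. Faim3 in ZnF4-/- against WT was at 0.48 in replicate 1 and -0.13 in replicate 2, and Blk at 0.06 and -0.28. Pax5 in ZnF1-/- against WT was at 0.42 in replicate 1 and -0.74 in replicate 2, and in ZnF4-/- against ZnF1-/- at -0.31 and 1.2. Of the genes not described by value above, Tnfrsf13b had the widest gap, at 1.04 in replicate 1 and -0.1 in replicate 2 of ZnF4-/- against WT. The difference between batches was not tested for any of the 15. An estimated 1 read of Pax5 lies behind ZnF4-/- replicate 1, 4 behind ZnF1-/- replicate 1 and 1 behind WT replicate 1.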

How the results depend on the processing

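In ZnF1-/- against WT, 8 members stayed below 0 and Cd79b above under every alternative tried. In ZnF4-/- against WT, 5 of 9 were below 0, 8 after quantile normalization and 3 to 6 with a library left out, and in ZnF4-/- against ZnF1-/- 2, or 2 to 3 with a library left out. The counts of genes called were 9 for ZnF1-/- against WT, 267 for ZnF4-/- against WT and 246 for ZnF4-/- against ZnF1-/-. With the replicate block they were 92, 863 and 765, and without the filter 4, 621 and 594. With 2A and 2B averaged the first was 1 and the second 130, and the first was 17 with a common median and 14 with quantile normalization. With a library left out they ran from 1 to 10, 44 to 253 and 90 to 318. Of the B lineage lists, 0, 1 and 2 genes were called in that order. The replicate block gave 2, 4 and 4, a common median or quantile normalization 2 in the second, no filter 4 in the third, and averaged WT libraries 1 in the third. With a library left out the counts were 0 in the first, 0 to 1 in the second and 1 to 2 in the third. In the text, blocked values stand beside each result given there that they changed, and the block changed no other call. The causes were not tested. Depth limits the low members: 1 read in ZnF4-/- replicate 1 is worth an estimated 0.262 RPKM for Vpreb3.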
